A study of Rattus norvegicus with 12 samples.

Results

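Potassium channel genes were taken as all rat genes whose current symbol starts with Kcn, and 53 of them were measured above the detection limit in the left ventricle. The gene reference lists 97 such genes, 91 had a probe on the array, and the 53 kept here were well above background on all 3 arrays of at least 1 group. They are 53 of 11211 named genes that passed the same limit. Each gene was followed by its brightest probe. The values of a gene did not decide its membership, other than through this limit. The family as a whole was chosen with earlier results of these data known.

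Potassium channels let potassium leave or enter the cell, set the resting potential of the cardiomyocyte and end its action potential. Voltage-gated (Kv) pore subunits open on depolarisation and carry the outward currents of repolarisation, and auxiliary subunits (Kcnab, Kcne, Kcnip) change their trafficking and gating. Inward rectifiers (Kcnj) hold the resting potential or answer to ATP or acetylcholine, tandem-pore channels (Kcnk) carry background current, and calcium-activated channels (Kcnm, Kcnn) couple calcium to potassium flow, with large roles in vessels and nerves.

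The tissue was the left ventricle of male Sprague-Dawley rats, and the study crossed dietary sodium with angiotensin II (AngII), a peptide hormone that constricts vessels and stimulates aldosterone release. Rats of the low sodium with AngII group ate a diet with under 0.01% NaCl and received AngII at 200 ng/kg/min under the skin. Rats of the normal sodium with AngII group ate 0.64% NaCl and received the same infusion. The low sodium group ate under 0.01% NaCl and the normal sodium group 0.64% NaCl, both without AngII. Diets lasted 8 weeks and the infusion covered the last 4. All 4 groups ate 60% fructose, a diet used to induce features of metabolic syndrome, so that no group shows the ventricle without fructose. Each group had 3 single-colour arrays, 12 in all, and values are log2 signal relative to the 75th percentile of the array. The labels state neither pooling nor separate rats for the replicates, so p-values measure the spread between these samples. The number of arrays limits the precision.

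Each of the 3 slides held 1 array of every group, and each group lay at 1 fixed position on its slide, so position and group cannot be told apart. The 75th percentile of the array signal lay between 1398.7 and 1988.3 intensity units and no spot was saturated. All 6 cardiomyocyte markers (Myh6, Tnnt2, Tnni3, Actc1, Ryr2, Myl2) passed the limit, with a summed relative log2 level of 9.76 to 10.25 over the 12 arrays. No potassium channel gene, and 0 of 20020 probes, passed an adjusted p of 0.05 in any of the 7 contrasts (limma, Benjamini-Hochberg over all probes tested), with or without the slide as a block. The block leaves the log2 differences as they are, other than for Kcnq1, and changes their errors. The differences below are therefore values that did not pass the test as fitted. At an unadjusted p under 0.05, 7 of the 53 genes (13.2%, against 7.95% of all genes) differed between normal sodium with AngII and normal sodium. Among these are Kcnrg, which passed the limit only through normal sodium with AngII, and Kcnmb1, which passed only through that group and low sodium. Their signs here are not independent of the limit. For low sodium with AngII against low sodium the count was 2 (3.77%, against 1.78% of all genes). It was 7 (13.2%, against 7.79%) for low sodium against normal sodium and 9 (17%, against 12.4%) for the same diets under AngII. For the mean AngII effect it was 4 (7.55%, against 3.01%) and for the interaction (AngII difference on low sodium, less the one on normal sodium) also 4 (7.55%, against 5.51%), Kcnrg among the last. For the mean sodium effect the share of channel genes was close to that of all genes, with 7 genes (13.2%, against 13.8%).

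Promoters are shown for 4 genes that had the smallest p in their direction for low sodium against normal sodium under AngII, the contrast with the most channel genes at unadjusted p under 0.05. The reference table held a promoter for 34 of the 53 genes, and for 4 of the 6 so chosen. They are the 250 bases before the RefSeq start, read 5′ to 3′ along the gene in build GRCr8, and capitals mark a GC box (GGGCGG) or a CCAAT box on either strand. Kcnk2 encodes a stretch- and lipid-sensitive tandem-pore channel, Kcne3 and Kcnip2 auxiliary subunits and Kcnn3 a small-conductance calcium-activated channel.
Kcnk2, chr13:103494687-103494936, minus strand: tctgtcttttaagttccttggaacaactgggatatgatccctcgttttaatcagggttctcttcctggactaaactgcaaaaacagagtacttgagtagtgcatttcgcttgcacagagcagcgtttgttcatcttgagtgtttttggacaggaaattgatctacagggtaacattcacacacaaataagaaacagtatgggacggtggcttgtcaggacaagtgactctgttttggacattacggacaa
Kcne3, chr1:163935785-163936034, plus strand: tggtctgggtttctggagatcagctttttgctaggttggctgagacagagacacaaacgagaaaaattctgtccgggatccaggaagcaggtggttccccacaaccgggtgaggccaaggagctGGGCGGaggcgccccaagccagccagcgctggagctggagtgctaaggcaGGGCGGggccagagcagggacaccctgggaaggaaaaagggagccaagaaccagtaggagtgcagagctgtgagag
Kcnn3, chr2:177234090-177234339, plus strand: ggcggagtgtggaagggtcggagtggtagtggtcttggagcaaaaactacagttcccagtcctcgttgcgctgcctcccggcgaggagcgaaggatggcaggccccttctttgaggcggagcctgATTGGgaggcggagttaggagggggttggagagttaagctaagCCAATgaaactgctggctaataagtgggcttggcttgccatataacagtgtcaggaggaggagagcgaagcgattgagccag
Kcnip2, chr1:254613899-254614148, minus strand: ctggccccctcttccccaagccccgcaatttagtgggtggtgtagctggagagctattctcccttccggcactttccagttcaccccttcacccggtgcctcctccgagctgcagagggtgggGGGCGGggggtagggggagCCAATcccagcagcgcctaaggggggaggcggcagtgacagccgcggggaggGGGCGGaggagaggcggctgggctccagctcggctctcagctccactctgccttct
Base composition differed widely, with 42% G and C before Kcnk2, 57.2% before Kcnn3, 59.6% before Kcne3 and 68% before Kcnip2. The Kcnk2 window held neither motif. Kcne3 had 2 GC boxes, Kcnn3 2 CCAAT boxes, and Kcnip2 2 GC boxes and 1 CCAAT box. Over the 34 channel promoters, 18 (52.9%) held a GC box, against 30.5% of all 33469 promoters of the table and 38.9% of the 21851 of protein-coding genes. A CCAAT box was in 5 (14.7%), against 34% of all promoters. The TATA motif (TATAAA, either strand) was in 0 of the 34, against 12.9% of all. Their median G and C content was 59.6%, against 51.2% over all promoters and 54% over those of protein-coding genes. Such matches are descriptions of letters in these windows.

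The largest set, 22 Kv pore genes, lay close to 0 as a set. Their median log2 change was -0.01 for normal sodium with AngII against normal sodium (all genes 0.015) and 0.01 for low sodium with AngII against low sodium (all genes -0.01). Low sodium against normal sodium gave -0.03 (all genes -0.02), and the same comparison under AngII gave -0.09 (all genes -0.05), which turned to 0.01 with quantile scaling and 0.23 in the authors' matrix. The first median was -0.17 in that matrix, and low sodium without AngII was -0.16 with normexp correction.

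**Figure D1:**
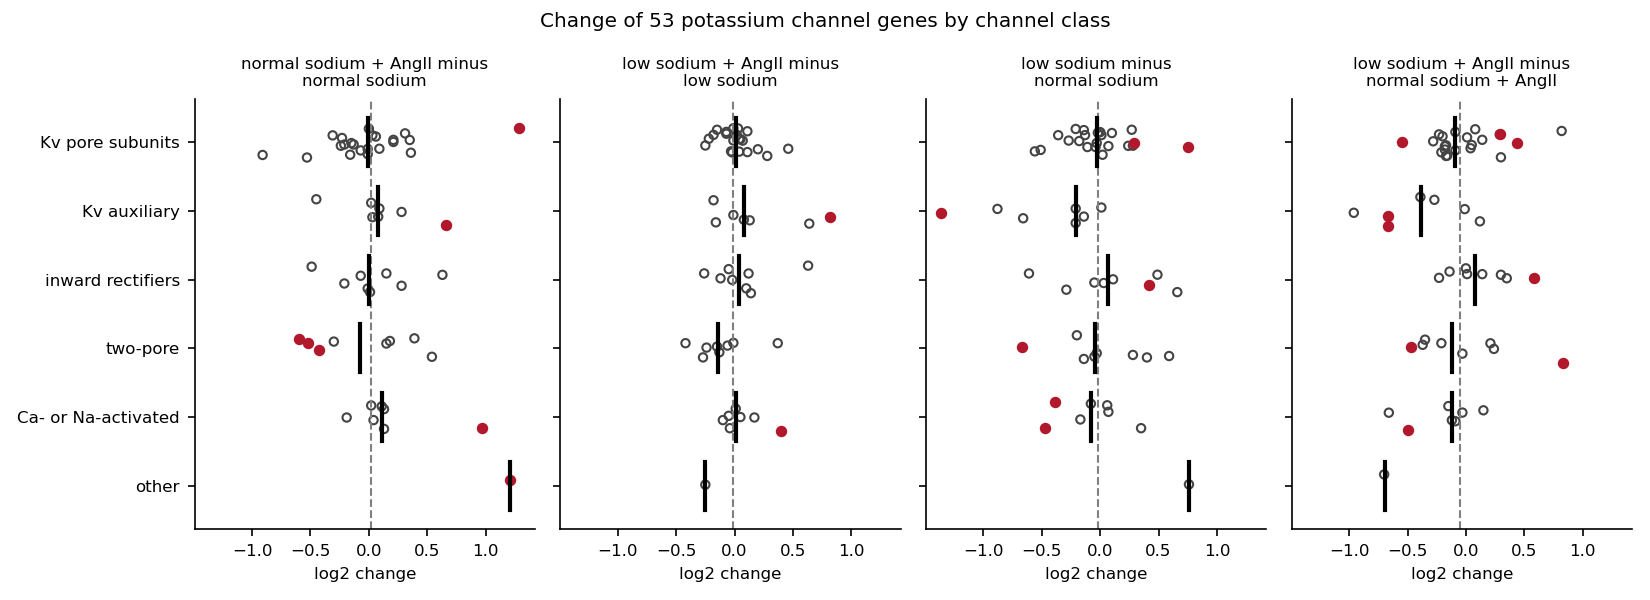
Log2 change of each of the 53 genes (points), in rows by channel class, for the 4 pairwise comparisons; filled red points have an unadjusted p under 0.05, thick black lines are class medians and the dashed line is the median of all 11211 genes. The Kv auxiliary genes lie mostly left of the dashed line in both sodium comparisons, with medians of -0.21 without AngII and -0.39 with it, the second turning to 0.13 in the authors' matrix.

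Kcnd2 and Kcnd3, the pore subunits of the transient outward current, and Kcna4, which carries its slow part, had no unadjusted p under 0.05 in any pairwise comparison. Kcnd2 read -1.53, -1.28 and -0.72 in low sodium with AngII, -1.53, -1.48 and -1.41 in normal sodium with AngII, -1.47, -1.32 and -0.81 in low sodium and -1.38, -1.29 and -0.83 in normal sodium. Replicate 3 was the highest Kcnd2 array in each of the 4 groups, and the normal sodium with AngII arrays were below those of normal sodium (log2 change -0.31 ± 0.23 SE, limma adjusted p = 0.748, 3 arrays per group), and by -0.48 with normexp correction. Kcnd3 differences lay between -0.18 and 0.02 over the 4 pairwise comparisons, with standard errors of 0.26. A second tested Kcnd3 probe gave -0.34 for AngII on normal sodium and 0.16 for low sodium under AngII. Kcna4 was at -0.36 ± 0.21 for low sodium against normal sodium (limma adjusted p = 0.756), and its other pairwise differences were within 0.17 of 0. Kcna5, an ultrarapid delayed rectifier subunit, differed by 0.14 to 0.31 with a standard error of 0.32.

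Delayed rectifier genes end the action potential. Kcnh2, which carries the rapid delayed rectifier current, read -1.17, -1.20 and -1.44 in low sodium with AngII, -1.29, -1.24 and -1.33 in normal sodium with AngII, -1.11, -1.40 and -1.11 in low sodium and -1.41, -1.56 and -1.52 in normal sodium. The low sodium arrays were all above the normal sodium arrays, by 0.29 ± 0.12 (limma adjusted p = 0.682). A second Kcnh2 probe gave 0.68 for this difference, and the mean of the 2 probes 0.49. Kcnq1, the pore of the slow delayed rectifier, read 3.37, 3.29 and 3.19 in low sodium with AngII, against 2.92, 2.90 and 3.16 in normal sodium with AngII. Its low sodium difference under AngII was 0.29 ± 0.12 (limma adjusted p = 0.423), while a second probe gave -0.03. The brighter Kcnq1 spot of normal sodium replicate 1 was an outlier and was left out, so this gene rests on 11 arrays. Kcna7, a muscle Kv subunit, had the smallest p among the negative differences for AngII on low sodium, at -0.25 ± 0.14 (limma adjusted p = 1.00), and at -0.15 without low sodium with AngII replicate 3. For Kcnv2, a subunit that is silent alone and modifies other Kv pores, the interaction was 0.80 ± 0.50 (limma adjusted p = 0.857).

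Within the 7 Kv auxiliary genes (Kcnab1, Kcnab3, Kcne1, Kcne3, Kcne4, Kcnip2, Kcnip3), 6 were below 0 for low sodium against normal sodium, with a median of -0.21 (all genes -0.02). Under AngII 6 were again below 0, with a median of -0.39 (all genes -0.05). Averaged over infusion all 7 were below 0, Kcne4 at 0.00 ± 0.20, and the median was -0.40 (all genes -0.03). Kcnab3, at -0.96 under AngII and -0.92 on average, passed the detection limit only through normal sodium with AngII. It had to be bright in that group, so its negative sign in these 2 counts is not independent of the limit. Of these genes 1 without AngII, 2 with it and 2 on average had an unadjusted p under 0.05 (7.79%, 12.4% and 13.8% of all genes), and none passed the adjusted test. In the authors' matrix the median under AngII turned to 0.13, while that without AngII was -0.29. With quantile scaling these medians were -0.27 and -0.19, and with normexp correction -0.16 and -0.29. The median averaged over infusion was -0.33 with quantile scaling, -0.25 with normexp correction and -0.07 in the authors' matrix.

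Kcnip2 encodes the calcium-binding subunit that the Kcnd pores need for the fast transient outward current. Its values were 0.29, 0.18 and 0.02 in low sodium with AngII, against 0.56, 1.30 and 0.62 in normal sodium with AngII. In the uninfused groups they were 0.02, 0.24 and 0.77 in low sodium, against 0.71, 0.38 and 0.55 in normal sodium. The infused groups did not overlap, and the uninfused groups did. The low sodium difference was -0.67 ± 0.23 under AngII (limma adjusted p = 0.351) and -0.21 ± 0.23 without it. Without normal sodium with AngII replicate 2, the highest array, the first was -0.43. Kcnip3, of the same family and best known from brain, was at -0.39 ± 0.23 and -0.21 ± 0.23 in these 2 comparisons, and its infused groups did not overlap either.

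Kcne3, a small membrane subunit that modifies Kcnq1 and Kv pores, read -5.08, -5.33 and -5.59 in low sodium with AngII, against -4.74, -4.59 and -4.68 in normal sodium with AngII. It read -5.84, -5.07 and -5.47 in low sodium, against -5.52, -5.28 and -5.17 in normal sodium. The 3 normal sodium with AngII arrays were the highest of the 12. They were above normal sodium by 0.66 ± 0.20 (limma adjusted p = 0.669), and low sodium with AngII was below them (log2 change -0.67 ± 0.20, limma adjusted p = 0.299). These sizes depended on how the signal was made. Normexp background correction gave 0.23 and -0.30, and the authors' own matrix 0.17 and -0.04.

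Kcne1, the partner of Kcnq1 in the slow delayed rectifier, read -5.46, -5.32 and -4.81 in low sodium, against -4.79, -2.54 and -4.18 in normal sodium. The groups did not overlap, and the difference was -1.36 ± 0.57 (limma adjusted p = 0.693). It rested on normal sodium replicate 2, without which it was -0.71. Under AngII the low sodium difference was -0.27 ± 0.57, and 0.04 in the authors' matrix. Kcnab1, a cytoplasmic beta subunit, read -3.88, -4.48 and -3.69 in low sodium with AngII, against -5.15, -5.04 and -4.31 in low sodium. The difference was 0.82 ± 0.37 (limma adjusted p = 1.00) with overlapping arrays, and 0.45 after normexp correction. Kcnab3 was above background on 0 of 3 low sodium with AngII arrays and on all 3 normal sodium with AngII arrays. It passed the limit through normal sodium with AngII alone. It read -6.97, -6.44 and -7.61 in low sodium with AngII, against -5.77, -5.25 and -7.12 in normal sodium with AngII. These arrays overlapped, and the low sodium difference was -0.96 ± 1.01 (limma adjusted p = 0.752).

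**Figure D2:**
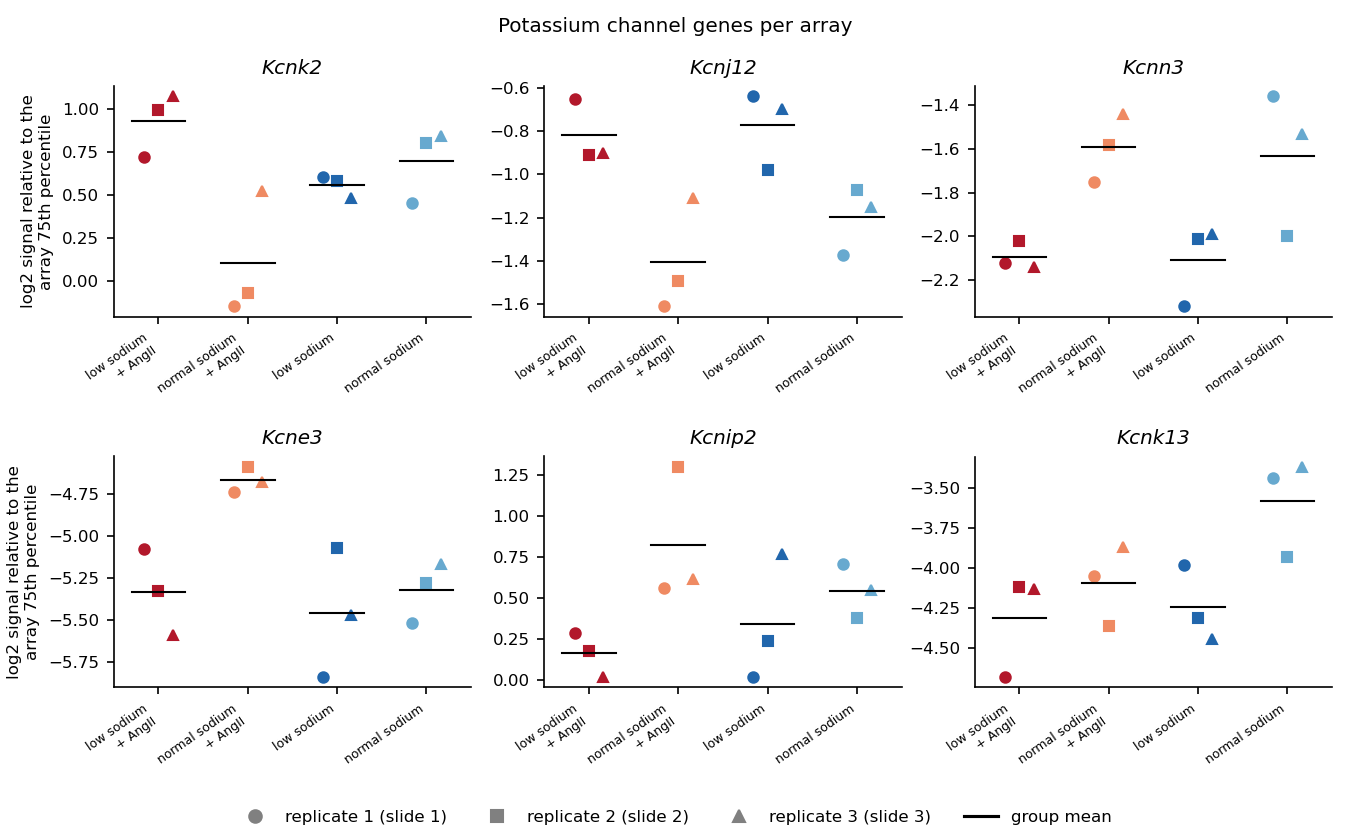
Relative log2 signal (vertical axis) of 6 channel genes on the 12 arrays, in columns by group; marker shape gives the replicate number, which is the slide, and bars are group means. Kcnk2 separates low sodium with AngII from normal sodium with AngII, and Kcnj12 sits higher, and Kcnn3 lower, in the low sodium groups.

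Among the 8 inward rectifiers the median was 0.07 for low sodium against normal sodium and 0.08 for the same diets under AngII (all genes -0.02 and -0.05), the first turning to -0.02 with normexp correction. Kcnj12, which with Kcnj2 makes the strong inward rectifier that holds the resting potential, had the smallest p of this class. It read -0.65, -0.91 and -0.90 in low sodium with AngII, against -1.61, -1.49 and -1.11 in normal sodium with AngII. Without AngII it read -0.64, -0.98 and -0.70 in low sodium, against -1.37, -1.07 and -1.15 in normal sodium. All 6 low sodium arrays were above all 6 normal sodium arrays. The low sodium difference was 0.58 ± 0.16 under AngII (limma adjusted p = 0.293) and 0.42 ± 0.16 without it (limma adjusted p = 0.655). Averaged over infusion, Kcnj12 was 1.42-fold higher on low sodium (log2 change 0.50 ± 0.11, limma adjusted p = 0.151), the smallest p of the 53 genes for this effect, with 0.85, 0.33 and 0.33 on slides 1 to 3. Array weights called it under AngII and on average (limma adjusted p = 0.0481 and 0.0498). With normexp correction the difference without AngII was 0.22.

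Kcnj2, the partner of Kcnj12, passed the detection limit on all 9 arrays outside the normal sodium group, but within that group on only 1 of 3. Its values were -5.36, -5.76 and -6.17 in low sodium with AngII, -5.63, -5.64 and -5.32 in normal sodium with AngII, -5.62, -5.38 and -5.50 in low sodium and -6.65, -6.43 and -5.39 in normal sodium. Replicates 1 and 2 of normal sodium were the lowest arrays, and replicate 3 was not. Kcnj2 differed by 0.66 ± 0.30 for low sodium against normal sodium (limma adjusted p = 0.709), by -0.23 ± 0.30 for the same under AngII and by 0.63 ± 0.30 for AngII on normal sodium (limma adjusted p = 0.669). Normexp correction gave 0.01, -0.07 and 0.10 for these 3 Kcnj2 differences, and the authors' matrix 0.37, 0.52 and -0.18, the last 2 with the opposite sign.

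The pores of the ATP-sensitive channel, which couples metabolism to membrane potential, had small differences. Kcnj8, the vascular form, had the narrowest error of the set, and its group means were all within 0.14 of each other. Its pairwise differences were -0.07, 0.12, -0.05 and 0.14, with standard errors of 0.10. Kcnj11, the cardiomyocyte form, differed by at most 0.15 ± 0.20 in any pairwise comparison. Of their regulatory partners, Abcc9 was at 0.40 for low sodium against normal sodium and Abcc8 at 0.00, and neither passed the adjusted test.

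Kcnj3 and Kcnj5 form the acetylcholine-activated channel, richest in the atria. Kcnj3 read -0.65, -0.53 and 0.42 in low sodium with AngII, -0.63, -0.64 and -0.37 in normal sodium with AngII, -0.32, -0.27 and -0.44 in low sodium and 0.22, -0.17 and -0.22 in normal sodium. Replicate 3 of low sodium with AngII was about 1 log2 unit above the other 2 arrays of its group. The Kcnj3 interaction was 0.59 ± 0.35 (limma adjusted p = 0.857), 0.35 with normexp correction and 0.30 in the authors' matrix. Kcnj5 differed by at most 0.12 in size, with a standard error of 0.20. A second, much dimmer Kcnj5 probe gave -0.38 for AngII on normal sodium. Of the atrial markers, Sln was at 1.88 for low sodium against normal sodium and 2.49 for the same under AngII, Myl7 at 0.85 and 0.98, and Myl4 at -0.01 and 0.04, none of them called by the adjusted test. The part of atrial tissue in these values was not tested.

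The 8 tandem-pore genes had 3 members at an unadjusted p under 0.05 for normal sodium with AngII against normal sodium (7.95% of all genes in either direction), all lower: Kcnk2, Kcnk5 and Kcnk13. For AngII on low sodium 7 of the 8 were below 0, with a median of -0.14 (all genes -0.01) and none at an unadjusted p under 0.05. That median was -0.06 with normexp correction and -0.08 in the authors' matrix.

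Kcnk2 read 0.72, 0.99 and 1.07 in low sodium with AngII, against -0.15, -0.07 and 0.52 in normal sodium with AngII. In the uninfused groups it read 0.60, 0.58 and 0.48 in low sodium, against 0.45, 0.80 and 0.84 in normal sodium. The infused groups did not overlap, with low sodium higher, and the uninfused groups overlapped. Under AngII, Kcnk2 was 1.78-fold higher on low sodium (log2 change 0.83 ± 0.18, limma adjusted p = 0.280), the smallest p of the 53 genes in this contrast, with 0.87, 1.06 and 0.55 on slides 1 to 3. Without AngII the low sodium difference was -0.14 ± 0.18. The AngII difference was -0.60 ± 0.18 on normal sodium (limma adjusted p = 0.669) and 0.37 ± 0.18 on low sodium (limma adjusted p = 1.00). The interaction was 0.97 ± 0.26 (limma adjusted p = 0.857), at 0.72, 1.28 and 0.92 on slides 1 to 3. Kcnk2 had 3 tested probes, for 2 transcript records. For low sodium against normal sodium under AngII they gave 0.83, 0.26 and 0.70, and for the interaction 0.97, 0.20 and 0.64, all in the same direction. With array weights the low sodium difference under AngII was called (limma adjusted p = 0.0254). With the mean of the 3 probes the AngII difference on normal sodium was -0.33 and the interaction 0.60.

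Kcnk13, a halothane-inhibited background channel, read -4.68, -4.12 and -4.13 in low sodium with AngII, -4.05, -4.36 and -3.87 in normal sodium with AngII, -3.98, -4.31 and -4.44 in low sodium and -3.44, -3.93 and -3.37 in normal sodium. The low sodium arrays were all below the normal sodium arrays, and the infused groups overlapped. The difference was -0.67 ± 0.22 without AngII (limma adjusted p = 0.617) and -0.21 ± 0.22 with it. AngII on normal sodium gave -0.52 ± 0.22 (limma adjusted p = 0.669). Averaged over infusion the low sodium difference was -0.44 ± 0.15 (limma adjusted p = 0.273), and -0.25 in the authors' matrix. Kcnk5, an alkaline-activated channel, read -3.45, -3.78 and -3.77 in normal sodium with AngII, against -3.20, -3.35 and -3.16 in normal sodium. These groups did not overlap, and the difference was -0.43 ± 0.17 (limma adjusted p = 0.669).

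Kcnk3, an acid-sensitive background channel, read 2.39, 2.25 and 1.95 in low sodium with AngII, 2.43, 2.89 and 2.29 in normal sodium with AngII, 2.36, 2.39 and 2.55 in low sodium and 2.41, 1.87 and 2.17 in normal sodium. AngII differences were 0.39 ± 0.19 on normal sodium and -0.24 ± 0.19 on low sodium, and the interaction was -0.63 ± 0.27 (limma adjusted p = 0.857). Kcnk2 and Kcnk3 therefore had interactions of opposite sign. On slide 1 the Kcnk3 interaction was 0.01, against -1.17 and -0.73 on slides 2 and 3. Kcnk6, of the weakly inward rectifying branch, was at -0.47 ± 0.20 for low sodium against normal sodium under AngII (limma adjusted p = 0.429), with groups that did not overlap. This last comparison was named after its value was seen.

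Of the 7 calcium-activated genes, 6 were below 0 for low sodium against normal sodium under AngII, with a median of -0.12 (all genes -0.05), and 4 were below 0 without AngII, with a median of -0.08 (all genes -0.02). With quantile scaling the first median was -0.02, and in the authors' matrix it was 0.005. Kcnn3, a small-conductance channel of cardiomyocytes, vessels and nerves, read -2.12, -2.02 and -2.14 in low sodium with AngII, against -1.75, -1.58 and -1.44 in normal sodium with AngII. Without AngII it read -2.32, -2.01 and -1.99 in low sodium, against -1.36, -2.00 and -1.53 in normal sodium. The infused groups did not overlap, and in the uninfused groups only normal sodium replicate 2 lay within the low sodium range. The low sodium difference was -0.50 ± 0.17 with AngII (limma adjusted p = 0.342) and -0.47 ± 0.17 without it (limma adjusted p = 0.634). Averaged over infusion it was -0.49 ± 0.12 (limma adjusted p = 0.154), at -0.66, -0.22 and -0.58 on slides 1 to 3, and it was called with array weights (limma adjusted p = 0.0428).

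Small-conductance channels are also made by endothelium, and macrophages express several channel genes. All 6 endothelial markers were below 0 in both sodium comparisons, with medians of -0.34 under AngII and -0.25 without it. Their summed log2 level was 4.12 to 4.32 in low sodium with AngII, against 4.26 to 4.41 in normal sodium with AngII, and 3.95 to 4.44 in low sodium, against 4.01 to 4.80 in normal sodium. All 6 macrophage markers were below 0 as well, with medians of -0.60 and -0.42. Their summed level was 0.08 to 0.20 in low sodium with AngII, against 0.54 to 0.71 in normal sodium with AngII, and -0.36 to 0.32 in low sodium, against 0.42 to 0.60 in normal sodium. All 5 fibroblast markers were below 0 under AngII and 4 of 5 without it, with medians of -0.23 and -0.19. Their summed level was 4.69 to 4.94 in low sodium with AngII, against 4.95 to 5.07 in normal sodium with AngII, and 4.67 to 4.85 in low sodium, against 4.93 to 5.09 in normal sodium. The cardiomyocyte markers had medians of -0.09 and -0.06. Of the 5 nerve and Schwann markers 4 were below 0 under AngII (median -0.10) and 5 without it (median -0.34). Of the 4 pericyte markers 3 were below 0 under AngII (median -0.30) and 2 without it (median 0.01). The 3 red cell genes (Hba-a1, Hbb, Alas2) were all below 0 for low sodium under AngII (median -0.44) and all above 0 for AngII on normal sodium (median 0.71). Their summed level was 7.81 to 8.10 in low sodium with AngII, 8.18 to 8.27 in normal sodium with AngII, 7.80 to 8.01 in low sodium and 7.65 to 8.45 in normal sodium. In whole tissue, fewer cells of a type and less RNA per cell cannot be told apart, and the part of these markers in the channel values was not tested.

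The large-conductance channel gene Kcnma1 differed by at most 0.15 in size between any 2 groups compared (standard error 0.41). Kcnmb1, its beta subunit in smooth muscle, read -5.22, -5.80 and -5.33 in low sodium with AngII, -4.10, -5.39 and -4.88 in normal sodium with AngII, -6.04, -5.03 and -5.15 in low sodium and -5.93, -5.88 and -5.47 in normal sodium. Normal sodium with AngII was above normal sodium without overlap, by 0.97 ± 0.34 (limma adjusted p = 0.669), with 1.82 on slide 1, 0.49 on slide 2 and 0.59 on slide 3. This Kcnmb1 difference was 0.27 with normexp correction and 0.18 in the authors' matrix. Kcnmb1 passed the detection limit only through normal sodium with AngII and low sodium, and had to be bright in at least 1 of them. The signs of its AngII difference on normal sodium and of its interaction are therefore not independent of the limit. The 6 smooth muscle markers were all above 0 for AngII on normal sodium (median 0.62), with a summed log2 level of 4.31 to 4.34 in normal sodium with AngII, against 4.07 to 4.30 in normal sodium. The largest marker differences were those of Lmod1 and Cnn1, which were dim in normal sodium (-7.22 and -5.90). All 6 markers were also above 0 for low sodium against normal sodium (median 0.59). Under AngII all 6 were below 0 for the same diets (median -0.12). Their interaction was below 0 for 6 of 6 (median -0.74), and that of Kcnmb1 was -1.01 ± 0.49 (limma adjusted p = 0.857), at -0.20 with normexp correction and -0.10 in the authors' matrix. The part of smooth muscle in the Kcnmb1 value was not tested. Kcnmb4, the beta subunit best known from brain, read -3.16, -3.12 and -2.86 in low sodium with AngII, against -3.41, -3.40 and -3.54 in low sodium. It was higher by 0.40 ± 0.17 without overlap (limma adjusted p = 1.00), the smallest p of the 53 genes for AngII on low sodium. Low sodium was also below normal sodium without overlap (log2 change -0.39 ± 0.17, limma adjusted p = 0.697). The mean of Kcnmb4 was -3.45 in low sodium, against -3.05 in low sodium with AngII, -2.93 in normal sodium with AngII and -3.06 in normal sodium. Only the low sodium group was thus set apart. Kcnn4, the intermediate-conductance channel of blood and endothelial cells, differed by at most 0.19 in size by its brightest probe (standard error 0.31). A second tested Kcnn4 probe of similar level gave -0.28 for AngII on low sodium and 0.27 for low sodium without AngII. Its sign was opposite for AngII on normal sodium (0.12) and for low sodium under AngII (-0.13).

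Kcnrg, a soluble protein known to hold back Kv channel assembly, read -6.09, -5.44 and -6.59 in normal sodium with AngII, against -7.71, -7.04 and -7.00 in normal sodium. The difference was 1.21 ± 0.42 without overlap (limma adjusted p = 0.669). Kcnrg was above background on all 3 arrays of normal sodium with AngII only. It had to be bright there, so the sign of this difference is not independent of the limit. Its difference was 0.18 after normexp correction and -0.04 in the authors' matrix, so its direction turned between the scanner signal and that matrix.

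**Figure D3:**
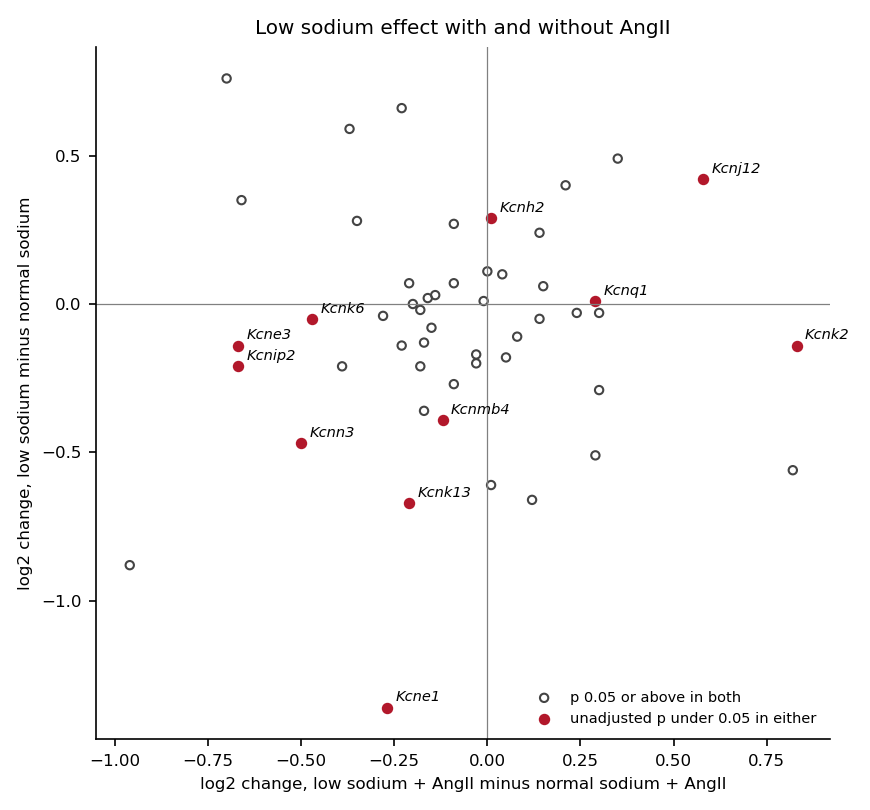
Low sodium effect on 51 of the 53 genes with AngII (horizontal, log2 change) against that without AngII (vertical, log2 change), which share no arrays; filled red points have an unadjusted p under 0.05 in either. Kcnj12 lies upper right, at 0.58 and 0.42, and Kcnn3 lower left, at -0.50 and -0.47.

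The sodium effect was measured in 2 sets of arrays that share no sample, though they share slides. Over the 53 genes its sign matched in 28 (52.8%), against 57.2% of all genes, and Pearson's r across genes was 0.00, against 0.28 over all genes. Of the 9 genes at an unadjusted p under 0.05 with AngII, 7 had the same sign without it (77.8%, against 72.4% of all such genes). For the reverse, 6 of 7 matched (85.7%, against 72.9%). The AngII effect matched in sign between diets in 24 of 53 genes (45.3%, against 43.3% of all genes), with r = -0.33 across genes (0.01 over all genes). Genes are not independent replicates, and these values carry no test.

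The highest group mean lay in normal sodium with AngII for 21 of the 53 genes (39.6%, against 34.7% of all genes) and in low sodium with AngII for 8 (15.1%, against 18.3%). Among the 21 are Kcnab3 and Kcnrg, which passed the limit only through that group and had to be bright there. Kcnmb1, which passed only through that group and low sodium, is among them too. All genes met the same limit. Arrays did not overlap for 10 genes (18.9%, against 14.2% of all genes) in normal sodium with AngII against normal sodium, Kcnrg and Kcnmb1 among them. In low sodium with AngII against low sodium they did not overlap for 4 (7.55%, against 6.81%). For the diets the counts were 12 (22.6%, against 24.4%) with AngII and 10 (18.9%, against 11.8%) without.

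**Figure D4:**
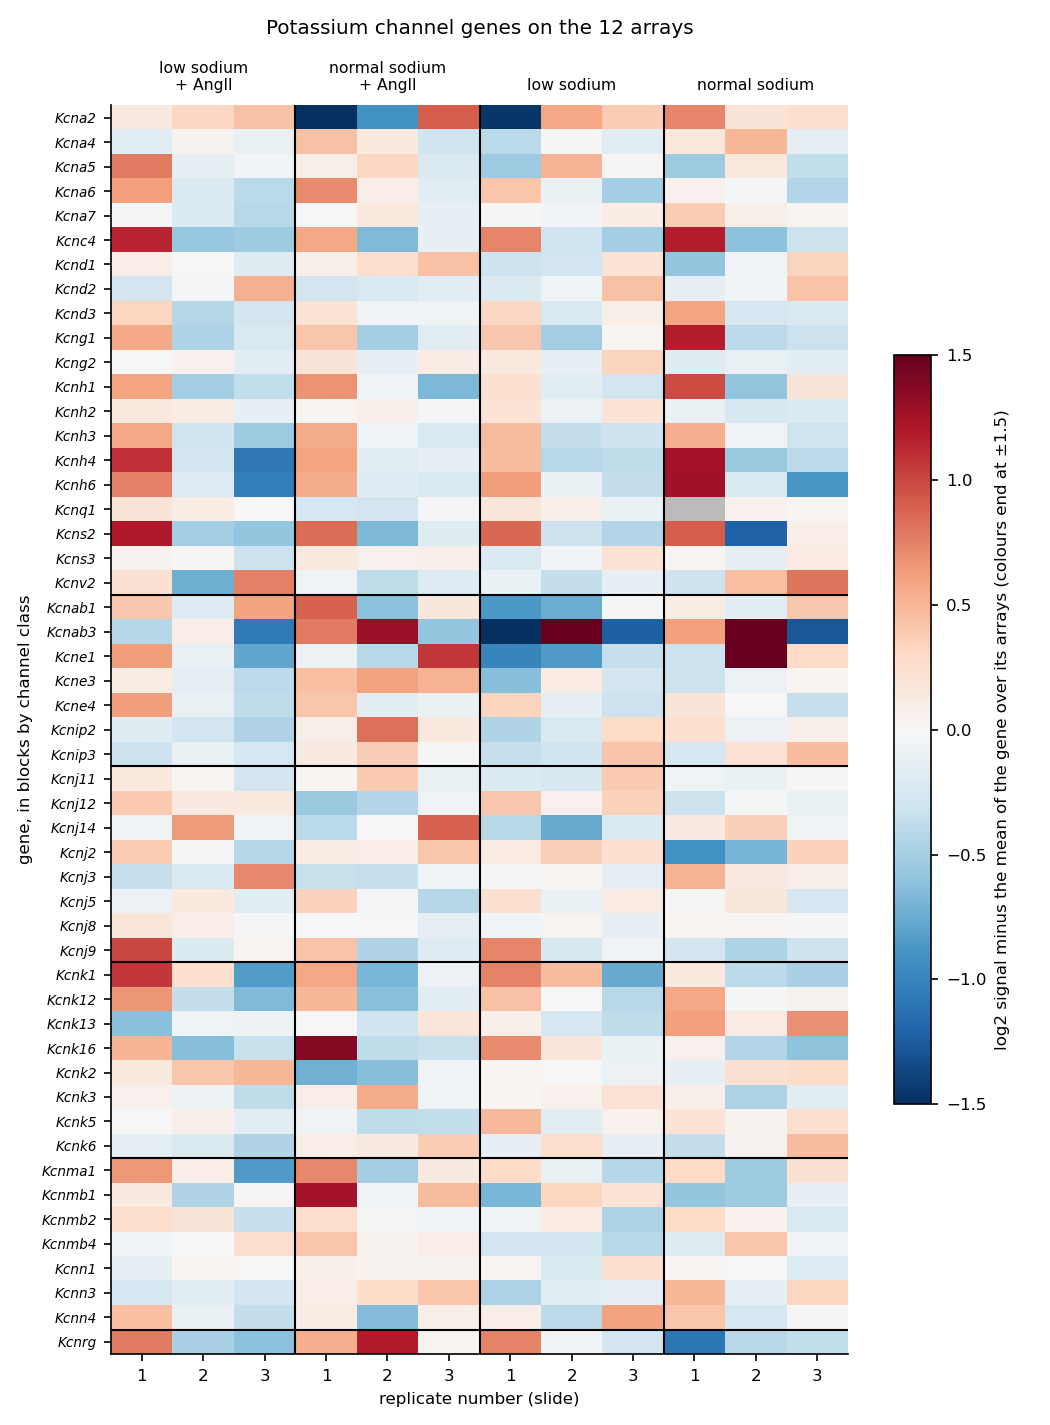
Relative log2 signal of 51 of the 53 genes (rows, in blocks by class) on the 12 arrays (columns, by group and replicate number), minus the mean of the gene; red is higher and blue lower, and the grey cell is the spot left out. Slide 1 columns are red in all 4 groups for genes such as Kcns2, Kcnh4 and Kcnc4.

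Part of the spread between arrays followed the slide. For 11 genes (20.8%, against 5.37% of all genes) all 4 arrays of slide 1 were above the other 8: Kcnc4, Kcnd3, Kcng1, Kcnh1, Kcnh3, Kcnh4, Kcnh6, Kcns2, Kcne4, Kcnk12 and Kcnma1. This list was read from the values. Kcns2, a silent Kv subunit, read -4.21, -4.57, -4.55 and -4.50 on slide 1, and its other 8 arrays lay between -6.62 and -5.31. Median background intensity was 24 to 25.5 on slide 1, 27 to 29.5 on slide 2 and 20 to 21 on slide 3, and its part in this pattern was not tested. None of these 11 genes had an unadjusted p under 0.05 in any contrast of the fit without the slide block. That fit counts the slide gap by which they were picked as error, so small p-values were unlikely. It therefore cannot say whether these genes differ by diet or AngII. The fit with the slide block takes that gap out. There too none of these 11 genes had an unadjusted p under 0.05 in a pairwise comparison. The lowest was 0.157 (limma with the slide block), for Kcnk12 and AngII on normal sodium.

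The 19 partner and regulator genes held 14 that were tested, and 0 passed the adjusted test in any contrast (limma). For low sodium against normal sodium 2 of the 14 had an unadjusted p under 0.05 (7.79% of all genes), both higher, Abcc9 and Klf15. Under AngII there were also 2 (12.4% of all genes), Klf15 and Akap9, an anchor of the Kcnq1 complex, the last at 0.31. Klf15, a transcription factor known in mice to drive rhythmic Kcnip2 expression, was at 0.60 without AngII, 0.55 with it and 0.58 on average. On the same arrays Kcnip2 was at -0.21 without AngII and -0.67 with it.

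The 38 channel genes outside the set were not well above background on all 3 arrays of any group. Of these, 10 reached 2 arrays of a group (Kcnab2, Kcnc2, Kcne2, Kcnip1, Kcnk10, Kcnmb3, Kcnn2, Kcnq3, Kcnt1 and Kcnt2), 10 reached 1 array and 18 none, Kcna1, Kcna3, Kcnj4 and Kcnj10 among them. Just inside the limit, Kcnc4 and Kcnh6 passed through low sodium alone, and Kcnab3 and Kcnrg through normal sodium with AngII alone. A gene that passed through 1 group had to be bright there, and 42 of the 53 were above background on all 12 arrays. Kcnd2l1, Kcnk16-ps1, Kcnk6-ps1, Kcnk7 and Kcnu1 were among the reference genes with no matched probe. For a pairwise difference the unadjusted 95% interval reached 0.22 (Kcnj8) to 2.22 (Kcnab3) log2 units either side, with a median of 0.55. In the fit without the slide block, a smaller difference of a typical gene of the set could not be told from 0 even before adjustment. The adjusted test asked for more, and Kcnk2 at 0.83 ± 0.18 for low sodium under AngII did not pass it.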

How the data were processed

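Total RNA of rat left ventricle was hybridised in 1 colour (Cy3) to 12 Agilent arrays, 3 per group. Per the file headers, the scanner signal is an intensity from Feature Extraction 10.7.3.1, background-subtracted within each array; the submitters' processing notes name version 11.0.1.1 with R 3.3.04 and limma. Deposited 0 or 1 flags mark spots above background and outliers. The authors' deposited matrix holds log2 values scaled by a method not given in the sources used here.

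Control spots and the outliers of each array (296 to 421) were dropped, and the log2 intensity was reduced by the 75th percentile of each array. Spots of 1 probe were averaged, giving 30367 probes, and testing was limited to the 20020 probes called well above background on every array of some group (share of spots at least 0.5). Symbols came from RefSeq (GRCr8, names and promoters only) through accessions in the files; 18758 probes got 1 symbol and the others none. Limma 3.58.1 in R 4.3.3 (the data.table package, version 1.17.8) fitted 1 mean per group on all 12 arrays (2.61 prior degrees of freedom), with Benjamini-Hochberg adjustment over the probes; SE are limma's. The script was tested on simulated data. Alternatives were quantile scaling, normexp (offset 50) on median spot and background intensity, the detection filter, the slide block, array weights, probe means, the authors' matrix and leaving out arrays. The normexp offset is added before the log, so it draws differences of dim probes toward 0.

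Genes named were, per contrast, the 3 smallest p in each direction, a fixed set of cardiac current genes, the smallest p of each class and genes at the detection limit; some of these genes are not reported here, by name or in the per-gene plots, but count in totals and medians. The channel genes and all lists were chosen with earlier results of these data known.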

Additional observations from a re-analysis of the deposited data

How the results depend on the processing

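No channel gene passed an adjusted p of 0.05 in any contrast under quantile scaling, normexp correction, either change of the detection filter, probe means, the authors' matrix or the slide block. Array weights (0.245 for normal sodium replicate 1 to 5.91 for low sodium with AngII replicate 2) called 2 genes for low sodium under AngII (Kcnk2 and Kcnj12, limma adjusted p = 0.0254 and 0.0481) and 2 for the mean sodium effect (Kcnn3 and Kcnj12, 0.0428 and 0.0498). The share of all probes called with these weights is not given here, so these calls are not shown to be particular to the channel genes. Leaving out 1 array at a time gave 0 to 1 calls for AngII on normal sodium, the 1 without low sodium replicate 1, and 0 in the 6 other contrasts. The cause was not tested.

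Medians over the 53 genes moved around 0. The AngII effect on normal sodium (0.025) was 0.137 with array weights, -0.128 in the authors' matrix, 0.102 within slide 1 and 0.108 within slide 3, and -0.095 to 0.151 without 1 array. The AngII effect on low sodium was 0.227 within slide 1, and -0.137 to 0.091 without 1 array. Low sodium without AngII was -0.101 with normexp and 0.059 with array weights, and -0.097 to 0.075 without 1 array. Low sodium with AngII was 0.220 in the authors' matrix and -0.292 within slide 3, and -0.259 to 0.061 without 1 array. The mean sodium effect was 0.009 with quantile scaling, 0.104 in the authors' matrix and -0.115 within slide 3, and -0.186 to 0.036 without 1 array. The mean AngII effect spanned -0.051 to 0.086 without 1 array, and the interaction -0.227 to 0.185, with -0.310 within slide 3. In the authors' matrix Kcnk2 (0.73), Kcnj12 (0.48), Kcnn3 (-0.50) and Kcnip2 (-0.71) stayed near their values for low sodium under AngII. Kcne3 did not, as given above. Of 217 log2 changes of single genes compared over the contrasts, 25 changed sign in that matrix. Among the 69 over 0.3 in size, 6 did.

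Same-numbered arrays correlated above 0.1 in 17 of 18 pairs after removing group means (0.333 to 0.432 for number 1, 0.119 to 0.307 for number 2, 0.0469 to 0.229 for number 3), against 5 of 36 pairs with different numbers. A number is a slide, shared by all 4 groups. As 1 pair fell short of 0.1, the fit without the block was kept, although the slide was a balanced block of the design. The SE and p-values given for single genes therefore include the spread between slides, which for some genes was large. With the replicate block 0 genes were called in each contrast, and the lowest adjusted p of a channel gene was 0.122 to 1.00. Channel genes at an unadjusted p under 0.05 numbered 9 with the block, against 7 without it, for AngII on normal sodium (8.83% of all genes with the block, 7 genes in both fits) and for low sodium without AngII (8.60%, 6 in both). The other 5 contrasts moved by at most 1 gene.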
